A study of Mus musculus with 9 samples.

Results

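Among 10407 binding peaks of the RNA-binding protein Mbnl2 in mouse hippocampus, 450 (4.32%) lay neither purely in a 3'UTR, nor purely in an intron, nor purely in coding sequence (CDS). They were chosen by the region name in the authors' peak table. Of them, 127 were listed in a 5'UTR, 197 in both a 5'UTR and a 3'UTR, 51 in both CDS and a 3'UTR, 50 in both CDS and a 5'UTR, and 25 in rarer classes, mainly exons listed as unclassified (11) or as unclassified and downstream (8). A combined name is read here as a position that the authors' annotation placed in more than 1 kind of region. Class names such as 5'UTR are used below as listed and were not checked against transcript models. The 450 peaks fell in 308 of the 4792 genes with any peak, and 448 of them matched a RefSeq gene by its ID, each protein coding. The study's plain classes held 5742 peaks in 3'UTRs, 3538 in introns and 677 in CDS.

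Peaks were mapped by crosslinking and immunoprecipitation (CLIP), in which ultraviolet light ties a protein to the RNA it touches and the short bound fragments, or tags, are sequenced. The 3 CLIP libraries came from hippocampi of wild-type female mice on the strain labelled C57BL/6 and 129 SvlmJ mixed, aged 3 months in one label and 11 to 12 weeks in another. The whole hippocampus was used, so tags come from its neurons, glia and vessels together, and whether a library is 1 animal is not stated. The study's lists of changed exons compare 3 hippocampi that are homozygous for a deletion in Mbnl2 (ΔE2/ΔE2) with 3 wild-type hippocampi, all from females of 2 to 3 months on the same mixed strain, by RNA-seq. They also use a splicing array.

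Muscleblind proteins bind RNA through zinc fingers and are best known for regulating alternative splicing from sites in introns. They also bind 3'UTRs, where they have been tied to polyadenylation and to RNA localization. A 5'UTR precedes the first codon and takes part in translation initiation. A position can be 5'UTR in 1 transcript and 3'UTR or CDS in another where transcripts of a gene differ in start, splicing or end.

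The libraries held 159144, 209430 and 334857 unique tags for replicates 1, 2 and 3. Some tags occurred in more than 1 library. A tag with the same position, length, strand and barcode in another library made up 12.3%, 19.8% and 14.3% of replicates 1, 2 and 3, with 64 distinct barcodes in use. At tag positions present in both libraries, it was counted whether at least 1 barcode was the same. This held at 52.6% of 13828 positions (replicates 1 and 2), 62.3% of 21994 (1 and 3) and 79.5% of 44776 (2 and 3). Of random tag pairs, 2.24% had the same barcode. That value is for 1 pair, while a position with several tags has more pairs that can match. The cause of the shared tags was not tested. At the 450 peaks, 17.6% of tags were of this kind, against 19.96% at all peaks. Results that rest on agreement between libraries are therefore given with and without such tags.

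The 450 peaks took 1187, 1487 and 2126 tags in replicates 1, 2 and 3, or 0.746%, 0.710% and 0.635% of unique tags (mean 0.697% ± 0.0566, SD, n = 3). Per library, 372, 403 and 441 of them had at least 1 tag. Tags ran almost wholly in the direction of the annotated gene, with 4800 sense and 2 antisense tags. The same was true over all peaks, with 107781 sense and 24 antisense tags. A count of 0 tags in a peak allows up to 18.9, 14.3 and 8.96 tags per 1000000 unique tags (CPM) in replicates 1, 2 and 3 (3 counts of the total, counting error only).

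Peaks listed in both a 5'UTR and a 3'UTR held tags at a level near that of plain 3'UTR peaks, while peaks listed in a 5'UTR alone held fewer, near the level of CDS peaks. Tags per peak averaged 12.6 ± 0.742 CPM in the 5'UTR, 19.3 ± 1.73 in the 5'UTR and 3'UTR class, 14.6 ± 2.19 in the CDS and 3'UTR class, 11.4 ± 1.33 in the CDS and 5'UTR class and 10.49 ± 1.87 in the rarer classes. The plain classes stood at 20.3 ± 1.44 in 3'UTRs, 12.0 ± 0.745 in CDS and 6.66 ± 0.0846 in introns (SD, n = 3 libraries throughout). Relative to 3'UTR peaks of the same library, the log2 ratio of tags per peak was -0.69 ± 0.06 for the 5'UTR, -0.08 ± 0.03 for the 5'UTR and 3'UTR class, -0.49 ± 0.17 for the CDS and 3'UTR class and -0.84 ± 0.22 for the CDS and 5'UTR class. Each had the same sign in 3 of 3 libraries. The exact two-sided sign-flip permutation test gave p = 0.25 for each, the smallest that 3 libraries allow, so none can pass a threshold of 0.05. Without shared tags the ratios were -0.66 for the 5'UTR and -0.07 for the 5'UTR and 3'UTR class. Counting a tag only where its centre lay in the peak turned the 5'UTR ratio to 0.059 (exact permutation p = 1.0). Median peak width was 12 nt in the 5'UTR class and 7 nt in plain 3'UTRs, and the part of width in this turn was not tested. A tag level follows both binding and the amount of RNA, in fewer or more cells, and these cannot be told apart.

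**Figure D1:**
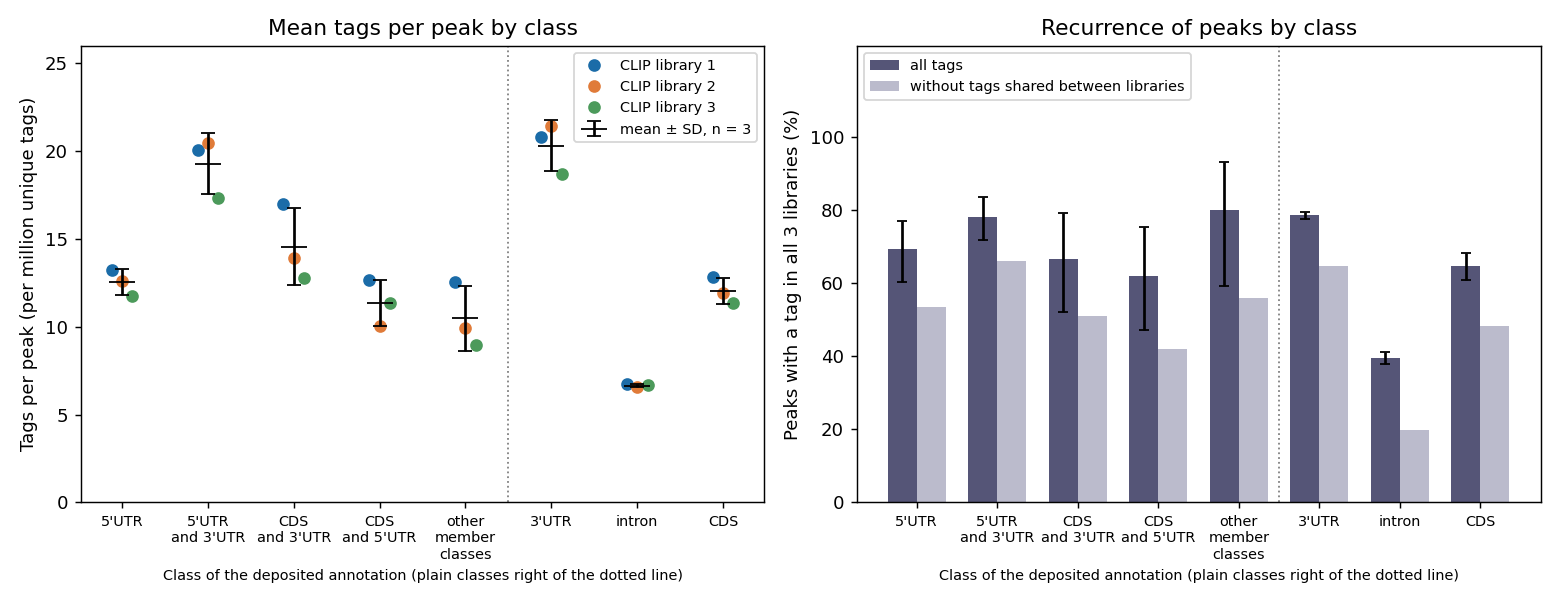
Left, mean tags per peak (CPM) in each class, with 1 point per CLIP library and bars for the mean ± SD; right, the share of peaks with a tag in all 3 libraries, with 95% exact intervals, from all tags (dark) and without tags shared between libraries (light). The 5'UTR and 3'UTR class sits beside plain 3'UTR peaks on both measures, at 19.3 against 20.3 CPM and 78.2% against 78.6%, and intron peaks are lowest.

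The deposited height of a peak, which is the authors' value over the 3 libraries together, had a median of 7 tags in the 5'UTR (3 to 64), 8 in the 5'UTR and 3'UTR class (3 to 168), and 6 in both the CDS and 3'UTR class (highest 55) and the CDS and 5'UTR class (highest 28). It was 9 in plain 3'UTRs (highest 359), 6 in CDS and 4 in introns. Heights of at least 20 made up 5.51% of 5'UTR peaks and 16.8% of the 5'UTR and 3'UTR class, against 17.02% of plain 3'UTR peaks. The authors also list an expected height, the same for all peaks of a gene. The median height over expected height was 36.6 in the 5'UTR, 23.8 in the 5'UTR and 3'UTR class, 33.3 in the CDS and 3'UTR class and 38.2 in the CDS and 5'UTR class, against 23.5 in plain 3'UTRs, 33.3 in CDS and 100 in introns. Annotated repeats covered 20 of the 450 peaks (4.44%) and 7.87% of the 5'UTR class, against 3.64% of plain 3'UTR peaks, 2.36% of CDS peaks and 29.5% of intron peaks.

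A tag in each of the 3 libraries was found at 327 of the 450 peaks (72.7%, 95% exact interval 68.3 to 76.7), against a background of 64.2% over all peaks. By class the share was 69.3% in the 5'UTR (60.5 to 77.2), 78.2% in the 5'UTR and 3'UTR class (71.7 to 83.7), 66.7% in the CDS and 3'UTR class (52.1 to 79.2), 62.0% in the CDS and 5'UTR class (47.2 to 75.3) and 80.0% in the rarer classes (59.3 to 93.2). Plain 3'UTR peaks stood at 78.6%, CDS peaks at 64.7% and intron peaks at 39.6%. Without shared tags the share was 57.6% of the 450 peaks (53.5% in the 5'UTR and 66.0% in the 5'UTR and 3'UTR class), against 48.1% of all peaks. Counted by tag centre, it was 32.2% of the 450 peaks, and the order of these classes turned round, with 40.2% in the 5'UTR and 25.4% in the 5'UTR and 3'UTR class. Their median peak widths were 12 and 6 nt, and the part of width was not tested. At heights of at least 10, counted by overlap, the share was 95.2% of the 450 peaks. It was 97.0% in the 5'UTR and 94.2% in the 5'UTR and 3'UTR class. The share thus changes with peak height, and the comparisons between classes were not adjusted for height. At any height and by overlap, 112 of the 450 peaks had tags in 2 libraries and 11 in 1. Pairs of libraries were compared across the 450 peaks on the log2 of CPM, with 1 CPM added. Pearson r was 0.27, 0.37 and 0.45 (replicates 1 and 2, 1 and 3, 2 and 3), and 0.37, 0.39 and 0.46 without shared tags. Peaks of a library share its depth, and most held few tags, so these values only describe the spread.

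The tallest 5'UTR peak was in Fth1, which encodes the heavy chain of the iron store ferritin and whose 5'UTR is known for an iron-responsive element. It lay at chr19:10057327 (mm9, plus strand), with 22, 24 and 18 tags in replicates 1, 2 and 3, or 138, 115 and 53.8 CPM (mean 102 ± 43.6). The third library was low, and its 95% exact interval (31.9 to 85.0) did not overlap that of the first (86.6 to 209). The gene had a plain 3'UTR peak 2186 nt further downstream. Its height of 64 was 5.28 times the expected height of 12.12, which is a small ratio among 5'UTR peaks.

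Trappc9, a subunit of the TRAPP complex of vesicle transport, carried 6 peaks listed as 5'UTR, the most of any gene in that class. The highest, at chr15:72636523 (minus strand), lay in a LINE repeat and had 94.3, 43.0 and 44.8 CPM in replicates 1, 2 and 3. Its height of 39 stood 557 times above the expected height of 0.07. The 6 peaks together held 151, 134 and 108 CPM. A dense run of 5 of them ended abruptly: the peak at 72636046, the most downstream of the 6, had 247 tags in the 1000 nt upstream of it and 3 in the 1000 nt downstream, leaving out the nearest 50 nt. The gene's only plain 3'UTR peak lay 216185.5 nt downstream of the highest peak. In RefSeq (GRCm38.p6) the noncoding RNA gene Peg13 lies inside the span of Trappc9, and whether tags come from it was not tested.

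Dpysl2, a collapsin response mediator that acts on axon microtubules, had 37.7, 81.2 and 23.9 CPM in replicates 1, 2 and 3 at its 5'UTR peak. The second library stood above the third beyond their intervals. Elavl3, a neuronal RNA-binding protein of the Hu family, had 4 peaks listed as 5'UTR, with 81.7, 95.5 and 68.7 CPM in all. It had no plain 3'UTR peak. The other tall 5'UTR peaks were in Atp6v0c, the membrane ring subunit of the vacuolar proton pump (30.1 ± 7.09 CPM), Centg1, now Agap2 and a GTPase-activating protein (29.5 ± 4.16), the chromatin organizer Satb1 (28.6 ± 6.72), mitochondrial creatine kinase Ckmt1 (31.4, 28.6 and 14.9 in replicates 1, 2 and 3) and the lactosylceramide synthase B4galt6 (23.2 ± 4.06). In each of these 5 the intervals of the 3 libraries overlapped.

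Tnks encodes tankyrase, a poly-ADP-ribose polymerase. Its tallest 5'UTR peak, at chr8:35889567-35889577 (minus strand), had 18.9, 62.1 and 35.8 CPM in replicates 1, 2 and 3, with overlapping intervals. It lay 3253.5 nt downstream of the nearest plain 3'UTR peak of the same gene, with 39 tags in the 1000 nt upstream and 0 in the 1000 nt downstream.

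**Figure D2:**
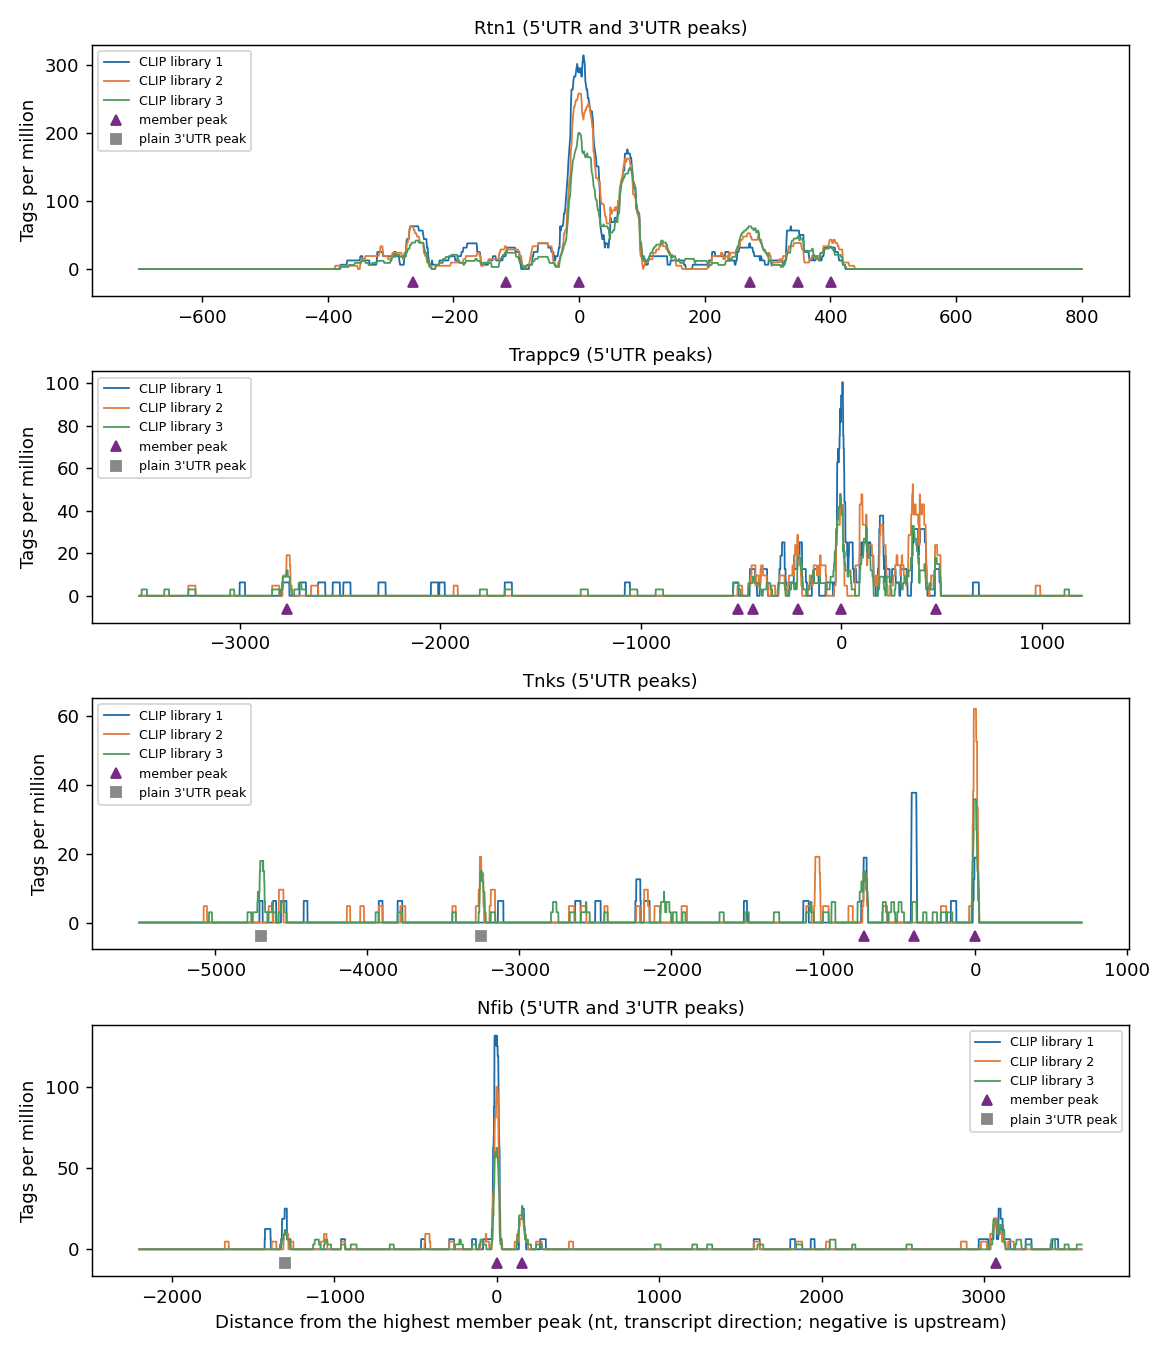
Tag coverage (CPM, 1 line per CLIP library) against distance in nt from the tallest member peak of Rtn1, Trappc9, Tnks and Nfib, in transcript direction with upstream negative; triangles mark the peaks described here and squares plain 3'UTR peaks. Tags of Trappc9 and Rtn1 stop within 1000 nt after the tallest peak, and both Tnks and Nfib have their peaks downstream of a plain 3'UTR peak.

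The tallest peak of all 450 was in Rtn1, a reticulon that shapes tubules of the endoplasmic reticulum, and belonged to the 5'UTR and 3'UTR class. At chr12:73313175 (minus strand) it had 47, 54 and 67 tags in replicates 1, 2 and 3, or 295, 258 and 200 CPM (251 ± 48.0). Its intervals overlapped between libraries. Rtn1 had 6 peaks within 669 nt, which together held 509, 487 and 412 CPM, and no plain 3'UTR peak. The most downstream of them, at 73312773, had 643 tags in the 1000 nt upstream and 0 in the 1000 nt downstream, leaving out the nearest 50 nt.

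In this class Atp2a2, the calcium pump of the endoplasmic reticulum, had the most peaks, 10 over 3465 nt, with 402, 329 and 284 CPM in all, and each of the 10 had a tag in every library. Atp2b2, a calcium pump of the plasma membrane, had 7 peaks with 314, 344 and 260 CPM. Its tallest, at chr6:113695815-113695819, held 113, 105 and 71.7 CPM. At 1 Atp2a2 peak, at chr5:122904291, the libraries stood apart, with 50.3, 81.2 and 20.9 CPM in replicates 1, 2 and 3.

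Nos1ap, an adaptor of neuronal nitric oxide synthase, had 8 peaks with 134 ± 36.6 CPM in all, and Ywhag, the gamma isoform of the 14-3-3 adaptors, had 5 with 254 ± 27.2. The tallest Ywhag peaks had 90.4 ± 33.2 and 73.1 ± 14.2 CPM. Adam22, a neuronal receptor for the secreted protein Lgi1, had 5 peaks with 64.1 ± 13.1. None of Atp2a2, Atp2b2, Rtn1, Nos1ap, Ywhag and Adam22 had a peak of a plain class. Nfib, a transcription factor of the nuclear factor I family, had 3 peaks, the tallest with 132, 100 and 62.7 CPM and 131 times its expected height. It lay 1301.5 nt downstream of the gene's plain 3'UTR peak.

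Peaks listed as both CDS and 3'UTR were led by Slc22a17, a member of the organic cation transporter family. Its peaks had 94.3, 81.2 and 68.7 CPM at chr14:55526381-55526383 and 75.4, 62.1 and 29.9 at chr14:55525942 in replicates 1, 2 and 3. Atp6v1g2, another vacuolar proton pump subunit, had 75.4, 52.5 and 38.8 at a peak that overlapped a SINE repeat. The first library was highest and the third lowest in each of these 3, with overlapping intervals. The next were 6330403K07Rik (43.6 ± 9.41) and Apoe, the apolipoprotein of astrocytes (39.1 ± 21.5).

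Peaks listed as both CDS and 5'UTR were led by Mbp, the myelin basic protein of oligodendrocytes, with 37.7, 52.5 and 32.8 CPM in replicates 1, 2 and 3. The same gene also gives rise to the longer Golli transcripts. Snap91, a clathrin assembly protein of the presynapse, had 5 such peaks with 145, 143 and 110 CPM in all, and its 3 tallest lay at least 26592.5 nt upstream of the nearest plain 3'UTR peak. The fourth by level was Bat2d, now Prrc2c (25.9 ± 2.47). The first Snap91 peak overlapped a simple repeat.

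In the rarer classes, the tallest peaks held 25.7 ± 14.5 CPM in Mllt11, 25.4 ± 7.40 in Pld3, of the phospholipase D family, and 24.4 ± 6.77 in Dip2b. Lower ones were Ppan, a ribosome biogenesis factor (14.5 ± 9.17), the splicing factor Hnrnph1 (13.6 ± 10.2), Adgrl3, or latrophilin 3 (12.3 ± 2.70), the palmitoyltransferase Zdhhc3 (10.8 ± 5.31) and Rhbdd2, of the rhomboid family (9.36 ± 3.30). At the Hnrnph1 peak, leaving out shared tags removed the tags of at least 1 library.

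**Figure D3:**
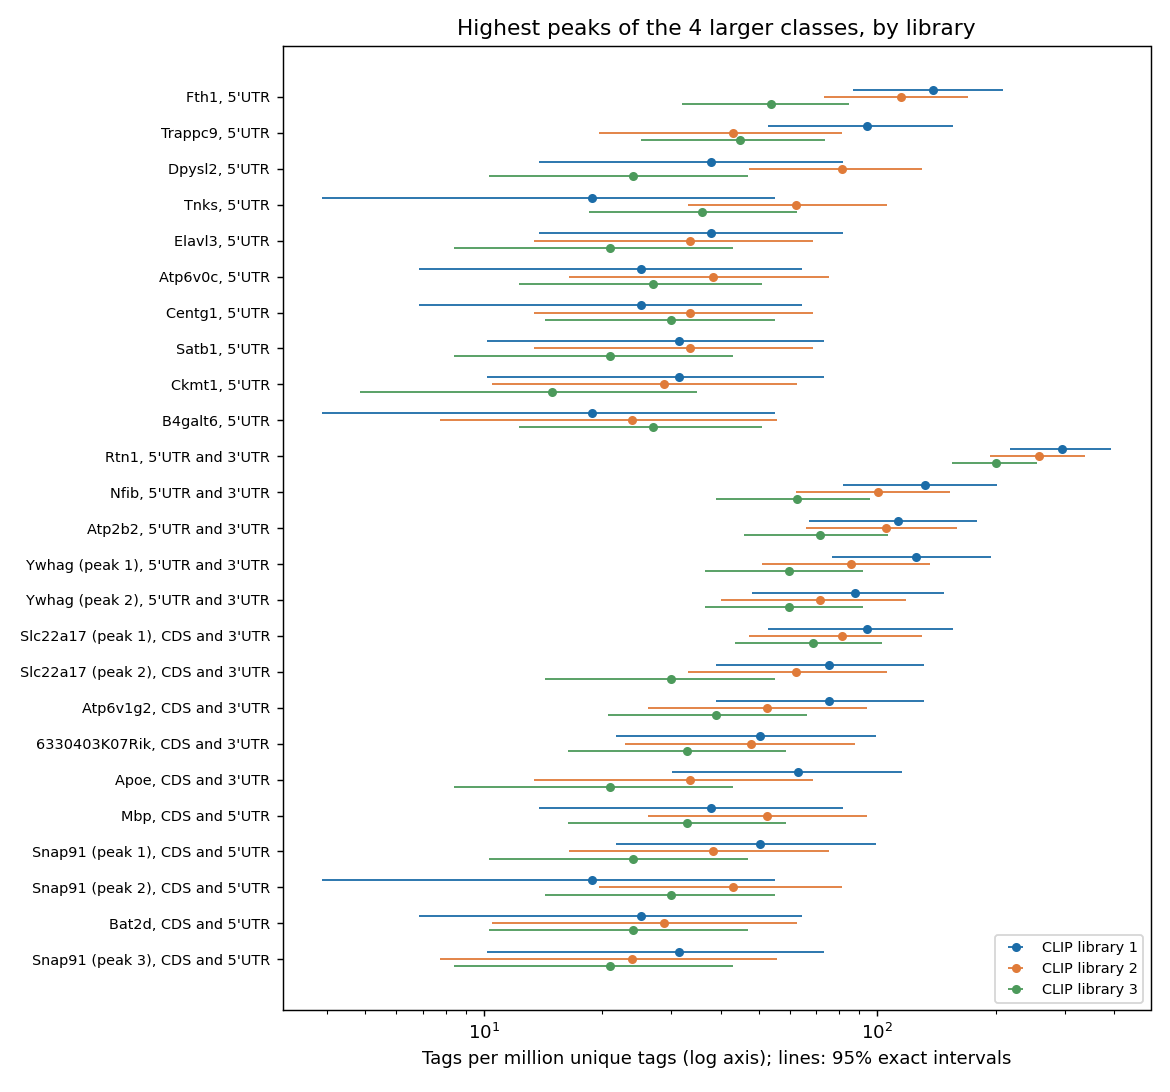
CPM (log axis) at the tallest peaks of the 4 larger classes in each CLIP library, with 95% exact intervals that cover counting error only. Rtn1 is highest at 200 to 295, Fth1 leads the 5'UTR class, and the intervals of a gene's libraries overlap except for Fth1 and Dpysl2.

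Over all 450 peaks, libraries with intervals that did not overlap were found at 4, namely Fth1, Dpysl2, Atp2a2 and Jph3. Peaks of the plain classes were not counted in this way, so the 4 have no background here. Jph3, a junctophilin that joins the plasma membrane to the endoplasmic reticulum, had 6.28, 33.4 and 0 CPM in replicates 1, 2 and 3 at its 5'UTR and 3'UTR peak. The highest height over expected height belonged to Raph1, with 900 from a height of 9 and an expected 0.01. At such low expected heights the ratio rests on its last digit.

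A plain 3'UTR peak in the same gene was found for 25 of 197 peaks (12.7%, in 16 genes) of the 5'UTR and 3'UTR class. Of these 25, 16 (64.0%, in 10 genes) lay downstream of all plain 3'UTR peaks of the gene, 5 lay between them and 4 upstream. All 4 peaks of Qk, an RNA-binding protein needed for myelination, lay between its 4 plain 3'UTR peaks, and held 239, 181 and 176 CPM in all. In the 5'UTR class, 36 of 127 peaks (28.3%) had a plain 3'UTR peak in the gene. Of such peaks 28 lay upstream and 8 (22.2% of the 36) downstream, the last in Tnks (3), Napb (2), Cpsf6 (2) and Creb3l2 (1). Napb encodes a SNAP protein of vesicle fusion and Cpsf6 a cleavage factor of polyadenylation. Of 237 such CDS peaks, 0.844% lay downstream, and of 750 intron peaks 12.1%. All 11 of the CDS and 5'UTR class lay upstream, as did 20 of 24 of the CDS and 3'UTR class, at a median distance of 484 nt. The median distance was 40072 nt in the 5'UTR class and 1301.5 nt in the 5'UTR and 3'UTR class. Peaks of 1 gene share its annotation, so these are counts of positions and carry no test.

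Most of these genes had no peak of a plain class. Of the 308 genes, 179 (58.1%) had no peak of a plain class, with 75 of 105 (71.4%) in the 5'UTR and 3'UTR class, 60 of 103 (58.3%) in the 5'UTR, 52.4% in the CDS and 5'UTR class and 36.4% in the CDS and 3'UTR class. Of the 31 genes with at least 3 of these peaks, 22 had at least 3 in the 5'UTR and 3'UTR class. The share without other classes was not counted for genes of the plain classes, so the 58.1% has no background here. A plain 3'UTR peak was found in 72 of the 308 genes (23.4%). The same held for 391 of 1677 genes with intron peaks and 200 of 581 with CDS peaks.

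Tags around the peaks differed by class. In the genomic windows between 50 and 1000 nt on either side, the downstream side held 58.7% ± 1.98 of tags for the 5'UTR class, 46.6% ± 1.33 for the 5'UTR and 3'UTR class, 80.7% ± 2.23 for the CDS and 3'UTR class and 46.0% ± 1.49 for the CDS and 5'UTR class (SD, n = 3 libraries). The share was 49.5% ± 0.584 for plain 3'UTR peaks, 67.9% ± 0.730 for CDS and 48.9% ± 0.894 for introns. It was 59.6% in the 5'UTR class and 81.0% in the CDS and 3'UTR class without shared tags. Tags were seen upstream alone, with at least 3, at 7 of 127 5'UTR peaks (5.51%) and downstream alone at 10 (7.87%). The shares were 6.25% and 3.86% over all peaks, and 5.61% and 9.75% for CDS peaks. The shares of tags pool all peaks of a class. Peak by peak, more tags lay downstream at 58 and upstream at 44 in the 5'UTR class. These counts were 82 and 104 in the 5'UTR and 3'UTR class and 28 and 10 in the CDS and 3'UTR class. They were 19 and 16 in the CDS and 5'UTR class, where the pooled share was 46.0%. Neighbouring peaks share windows.

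Genes for RNA-binding proteins were the functional list with the largest share. Of 41 RNA-binding and splicing genes with any peak, 11 (26.8%) had one of the 450, against a background of 6.43% of all genes with a peak, and the 24 peaks held 484, 482 and 397 CPM in replicates 1, 2 and 3. They were Mbnl1, Mbnl2, Elavl3, Qk, Hnrnpu, Hnrnpa2b1, Hnrnph1, Srsf7, Tardbp, Son and Luc7l2. Hnrnpu, a nuclear matrix RNA-binding protein, had 4 peaks (58.8 ± 12.9 CPM) in the 5'UTR and 3'UTR class, and the splicing factor Srsf7 had 3 (22.8 ± 5.17). Tardbp, which encodes TDP-43, had 1. Channel and receptor genes gave 3 of 26, namely the glutamate receptor subunits Grin2b and Gria2 and the calcium channel Cacna1a, with 82.7 ± 16.9 CPM in all. Synaptic genes gave 2 of 30 (Rims1 and Pclo), cytoskeletal genes 1 of 20 (Mtap1b, now Map1b), and translation genes 0 of 7. No test was made over lists, which were chosen with earlier results of these data known.

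Of the muscleblind genes, Mbnl1 and Mbnl2 each had 1 such peak. The Mbnl1 peak, listed as 5'UTR at chr3:60332967-60332976, had 6.28, 23.9 and 8.96 CPM in replicates 1, 2 and 3. The Mbnl2 peak, in the CDS and 3'UTR class at chr14:120828275-120828282, had 0, 14.3 and 11.9. The intervals overlapped at both, and the count of 0 in replicate 1 still allows up to 18.9 CPM.

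Of the listed cell type markers with any peak, Mbp held one of these peaks (1 of 4 oligodendrocyte genes), and 0 of 9 neuronal, 0 of 6 astrocytic, 0 of 4 endothelial, 0 of 3 choroid plexus and 0 of 1 microglial genes did. With a background of 6.43% of genes, lists this short cannot be told apart from it.

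Genes on the authors' lists of changed exons made up 17 of the 308 genes (5.52%, 95% exact interval 3.25 to 8.69), against a background of 3.92% of all genes with a peak, so the background lies inside the interval. By class there were 5 of 103 genes in the 5'UTR, 5 of 105 in the 5'UTR and 3'UTR class, 2 of 44 in the CDS and 3'UTR class, 3 of 42 in the CDS and 5'UTR class and 2 of 22 in the rarer classes. In these genes 24 peaks occurred, of which none lay inside a listed exon, 2 lay within 1000 nt of one and 3 lay between its flanking exons. Peaks of the plain classes were not placed against listed exons, so these counts have no background here.

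The nearest was in Cyfip1, of the WAVE complex that drives actin branching, where a 5'UTR peak lay 797 nt upstream of a 154 nt exon. That exon was listed from the array, and its change of inclusion by RNA-seq was 0.0845 (FDR 0.596), per the authors' deposited table. Synj2, an inositol phosphatase, had a CDS and 3'UTR peak 975 nt downstream of a 149 nt exon, for which the authors' deposited table gives a change of 0.226 and an FDR of 0.0334. The peak of Map4k3, a kinase, lay 4851 nt downstream of a 63 nt exon with a change of -0.220 in the authors' deposited table, and that of Mbnl2 lay 24321 nt downstream of a 95 nt exon with a change of -0.222 there. The sign is as deposited, since no file names the genotype on top.

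Other listed genes had their peaks far from the exon. For Adam22 the authors' deposited table gives 0.389 (FDR 0.0133) for a 195 nt exon, the largest positive change of these genes, and its 5 peaks lay 19810 to 22417 nt downstream of it. The 5'UTR peak of Mbnl1 lay 85629 nt upstream of its 54 nt exon, which has a change of -0.300 in the authors' deposited table. Of the tall peaks in listed genes, Pdlim7, an adaptor with PDZ and LIM domains, had 44.0, 19.1 and 5.97 CPM, 1207 nt downstream of its 119 nt exon. The first library was highest and the third lowest. 2500003M10Rik, now Chtop, which binds chromatin and RNA, had 6.28, 33.4 and 29.9 at a 5'UTR peak 4215 nt upstream of its exon, and Rgs7, a regulator of G protein signalling, had 12.6, 19.1 and 11.9 at a peak 7086 nt downstream.

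Crosslinking can leave mutations at the bound base, which the authors listed as sites. Such a site lay within 50 nt of 5 of the 450 peaks (1.11%), against a background of 2.06% of all peaks and 3.27% of plain 3'UTR peaks. None lay inside any of the 450, and a site lay inside 55 of all 10407 peaks. Of the 6 sites, 3 were in Rtn1 (6 mutations in 35 tags, 5 in 31 and 4 in 144). The others were in Atp2a2 (6 in 40), Mtap1b (5 in 24) and Cpsf6 (4 in 8), and the Cpsf6 site was the only one at a 5'UTR peak. Tags of the mutation sites are the same tags as those of the peaks.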

How the data were processed

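Mbnl2 CLIP was done on 3 wild-type hippocampus libraries. Alignment to the mouse build mm9 used Novoalign, per the submitters' processing notes. Not given in the sources used here are its settings, the peak caller and the region annotation. Each peak height is a pooled tag count over all libraries, deposited by the authors at P below 0.01 after Bonferroni correction, per the file headers. The covered repeat fraction, and the p-value and expected height in each peak's name, were deposited by the authors. Mutation sites were deposited by the authors with counts of tags and mutations, at an FDR of at most 0.001 and at least 4 mutations, per the file headers. Changes of exon inclusion, their FDR and an array separation score come from the authors' deposited comparison, whose test was not given. Tag files were deposited by the authors with 1 line per unique tag; their score column was not used. One line of the peak table was not analysed here.

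Sense tags overlapping a peak by at least 1 nt were counted per library and scaled to 1000000 unique tags (CPM). Peak coordinates were read as 1-based; tags over the first base equalled the deposited height for 10407 of 10407 peaks. Windows between 50 and 1000 nt used tag centres on the genome. Intervals are exact Clopper-Pearson or Poisson at 95% and do not cover amplification, which can copy 1 molecule many times. Class differences were tested by exact two-sided sign-flip permutation over 3 libraries on log2 tags per peak. The planned muscleblind motif count needed an mm9 genome and was not run. Described peaks are the 10 highest by mean CPM in the 5'UTR, 5 in each class with at least 20 peaks and 2 in each smaller class, every peak in a muscleblind gene and up to 10 in genes with a changed exon. Others, such as genes with many peaks, Jph3 and Raph1, were picked after their values were seen. Members and lists were chosen with earlier results of these data known. Alternatives were a count by tag centre, a height of at least 10, merging within 50 nt, leaving out repeats, counting combined classes under each class, scaling to tags in peaks, leaving out libraries and, added after seeing the data, leaving out shared tags. Counting steps were tested on simulated data. Computation used Python 3.11.15 with scipy 1.17.1, pandas 2.3.3 and numpy 2.4.6, and plots matplotlib 3.10.9.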

Additional observations from a re-analysis of the deposited data

How the results depend on the processing

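Of 106 values under an alternative, 72 stayed near the reported ones and 1 turned round. Counting a tag by its centre gave a tag share of 0.229% for the 450 peaks, 0.0722% for the 5'UTR class and 0.0930% for the 5'UTR and 3'UTR class, medians of 3.63, 4.68 and 0.995 CPM, and a tag in all 3 libraries at 32.2%, 40.2% and 25.4%. It also turned the log2 ratio of 5'UTR over 3'UTR peaks to 0.059 (exact permutation p = 1.0). Peaks are narrower than tags (median width 9 nt), so this count drops most overlapping tags. Median width was 12 nt in the 5'UTR class, 6 nt in the 5'UTR and 3'UTR class and 7 nt in plain 3'UTRs. Keeping heights of at least 10 gave shares of 0.443%, 0.0822% and 0.280% for the 450 peaks, the 5'UTR class and the 5'UTR and 3'UTR class. In that sequence, medians were 23.8, 21.2 and 24.3 CPM, and 95.2%, 97.0% and 94.2% had a tag in all 3 libraries. The 5'UTR class then stood above the 5'UTR and 3'UTR class, against 69.3% and 78.2% at any height. Scaling to tags in peaks gave 4.48%, 1.03% and 2.44% by construction. Without repeats the 5'UTR share was 0.146%, and with combined classes counted under each it was 0.599%. Leaving out 1 library in turn gave a tag in every remaining library at 74.2 to 87.6% of the 450 peaks, 71.7 to 85.0% in the 5'UTR class and 79.2 to 92.4% in the 5'UTR and 3'UTR class. The same settings gave tag shares of 0.672 to 0.728%, 0.155 to 0.164% and 0.368 to 0.400%. Without tags shared between libraries, chosen after seeing the data, all 3 libraries had a tag at 57.6%, 53.5% and 66.0%, and the 5'UTR median was 7.85. No mutation site (0) lay inside any of the 450 peaks, against 55 of all 10407 peaks with 1 inside. Within 100 nt, 7 of the 450 had a site, against 258 of all 10407. Other causes were not tested. The motif alternatives were not run, since no mm9 genome was used. No paired analysis was possible because the CLIP libraries form 1 group, with no second group to share their replicate numbers; class ratios were taken within each library.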
